A study of Mus musculus with 6 samples.

Results

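The nucleic acid sensors are the receptors, adaptors and kinases with which a cell recognises foreign or misplaced RNA and DNA. The 10 genes described here were taken by name from the 47643 genes of each deposited table. They are Ddx58, Ifih1, Dhx58, Mavs, Tlr3, Tlr7, Zbp1, Eif2ak2, Tmem173 and Mb21d1. RNA was sequenced from CD4+ T cells sorted for the GFP reporter of FOXP3, the transcription factor of regulatory T cells. The cells came from bone marrow (BM). Some mice had been injected with Vk*MYC, which models myeloma, a cancer of plasma cells, and the others were controls. There were 3 myeloma libraries (replicates 3, 4 and 5) and 3 control libraries (replicates 1, 3 and 5). Strain, age, the number of cells injected, the time after injection and any treatment of the controls are not given in the labels used here. The series title names a block of IFNRA1 (spelled as there), and all 6 libraries are from cells for which no such block is stated.

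As background, RNA in the cytosol is bound by the helicases RIG-I (Ddx58) and MDA5 (Ifih1), which signal through the mitochondrial adaptor MAVS. DNA in the cytosol is bound by cGAS (Mb21d1), which makes a cyclic dinucleotide that activates the adaptor STING (Tmem173). TLR3 and TLR7 read double-stranded and single-stranded RNA in endosomes, ZBP1 binds left-handed double helices, and the kinase PKR (Eif2ak2) halts translation when it binds double-stranded RNA. The helicases, cGAS and the Toll-like receptors can induce type I interferon, and several sensor genes are themselves interferon-inducible.

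The promoters are shown as a description of the sequence around the start sites. One motif searched was the interferon-stimulated response element (ISRE), through which type I interferon can act on a gene. Whether interferon had a part in the differences between the groups was not tested. RefSeq promoters of the build GRCm38.p6, 250 bases before to 50 after the start site, matched 6 of the 10 genes: Ddx58, Ifih1, Mavs, Tlr3, Eif2ak2 and Mb21d1 (listed there as Cgas). Dhx58, Tlr7, Zbp1 and Tmem173 had no promoter there. The ISRE core, GAAA followed by 2 bases of any kind and GAAA again, was searched on both strands and was found in 3 of the 6, those of Ddx58, Ifih1 and Eif2ak2, against 3.44% of the 32851 promoters in the table. In the lines that follow, each read 5′ to 3′ on the strand of its gene, capitals mark that core. The Mavs promoter, which has no match, is given beside the others.
Ddx58 (chr4:40239776-40240075, minus strand): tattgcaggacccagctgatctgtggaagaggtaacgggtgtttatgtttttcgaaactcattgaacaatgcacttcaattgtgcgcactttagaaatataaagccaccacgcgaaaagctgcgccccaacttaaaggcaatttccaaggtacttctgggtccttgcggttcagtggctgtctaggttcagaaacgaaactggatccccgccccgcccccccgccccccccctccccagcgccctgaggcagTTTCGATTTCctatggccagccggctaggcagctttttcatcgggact
Ifih1 (chr2:62646206-62646505, minus strand): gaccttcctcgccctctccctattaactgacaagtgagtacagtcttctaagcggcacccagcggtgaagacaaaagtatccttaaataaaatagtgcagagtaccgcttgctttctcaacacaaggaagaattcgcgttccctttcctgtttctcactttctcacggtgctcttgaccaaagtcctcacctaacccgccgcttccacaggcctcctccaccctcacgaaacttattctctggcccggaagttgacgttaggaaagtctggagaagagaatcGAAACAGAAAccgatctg
Eif2ak2 (chr17:78882523-78882822, minus strand): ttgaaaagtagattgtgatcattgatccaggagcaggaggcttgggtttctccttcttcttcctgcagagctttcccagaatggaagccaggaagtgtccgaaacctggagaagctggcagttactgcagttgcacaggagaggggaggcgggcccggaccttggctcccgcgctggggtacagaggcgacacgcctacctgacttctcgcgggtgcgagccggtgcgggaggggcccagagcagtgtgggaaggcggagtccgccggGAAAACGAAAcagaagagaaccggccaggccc
Mavs (chr2:131233813-131234112, plus strand): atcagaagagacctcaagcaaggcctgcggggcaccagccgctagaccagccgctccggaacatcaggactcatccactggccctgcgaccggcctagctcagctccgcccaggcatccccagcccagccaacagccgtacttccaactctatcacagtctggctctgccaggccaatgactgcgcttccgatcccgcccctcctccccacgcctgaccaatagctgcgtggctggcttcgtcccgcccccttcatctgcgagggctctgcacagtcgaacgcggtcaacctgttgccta

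The first base of the core lay at position 3 of the transcribed strand in Ddx58, where the match is to the opposite strand, at position 33 in Ifih1 and at position 19 in Eif2ak2, counting the start site as 1. The gamma-activated site TTCNNNGAA, which reads the same on both strands and did not overlap the core, was found in the Eif2ak2 promoter, against 8.3% of promoters in the table. A match describes letters in this window and is not evidence of binding.

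The libraries held between 10240620 and 13314631 expected counts, and 13235 genes had enough of them to be tested. In all 6 libraries the sorted cells carried T cell and regulatory T cell markers, whose summed level in counts-per-million (CPM) was 5757 to 6026 in myeloma and 5002 to 6618 in controls. Markers of other marrow cells were also read, and some differed by group. The summed plasma cell markers were at 124, 244 and 403 CPM in myeloma replicates 3, 4 and 5 and at 79.6 to 115 CPM in controls (3 of 8 tested markers called higher and none lower). Txndc5, which was not called, made up most of the control sums, at 67.9 to 73.6 CPM. Jchain was at 37.7, 118.5 and 199.3 CPM in myeloma, against 3.67, 0.601 and 3.7 CPM in controls (log2 fold change 5.44, edgeR adjusted p = 0.00239). Macrophage and monocyte markers summed to 80.8, 174 and 555 CPM in the same myeloma libraries, against 141, 57.2 and 100 CPM in control replicates 1, 3 and 5 (2 of 11 called higher). B cell markers summed to 34.5, 52.3 and 85.2 CPM in myeloma, against 54.5, 263 and 336 CPM in controls (6 of 10 called lower). Erythroid markers summed to 3861, 4794 and 4216 CPM in myeloma, against 6744, 14773 and 10396 CPM in controls (5 of 7 called lower). Neutrophil markers summed to 139, 472 and 425 CPM in myeloma, against 187, 64.2 and 165 CPM in controls, and these sums overlapped (none of 9 called). No marker of these lists was at 0 in all 6 libraries, and the part of these cells in the sensor values was not tested. In RNA from pooled sorted cells, a change in the share of cells that carry a transcript and a change in the amount per cell cannot be told apart.

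Sorted cells from myeloma marrow carried more transcript of most RNA receptors, while the adaptor genes Mavs and Tmem173 were not called. In edgeR (quasi-likelihood, p-values adjusted by Benjamini-Hochberg over all genes), Ddx58, Ifih1, Dhx58, Tlr7, Zbp1 and Eif2ak2 were higher in myeloma at the threshold of 0.05. That is 6 of 10, where 6.33% of all genes tested were called higher. No sensor gene was called lower, against 4.69% of all genes. The 3 myeloma values lay above the 3 control values for 9 of the 10 genes in CPM, a separation that 17.3% of all genes showed, and below them for none, against 16% of all genes. The median log2 fold change was 1.13 over the 10 genes and 0.02 over all genes tested. Tlr3 passed the filter on low counts through the myeloma libraries, and without it the counts were 6 called and 8 separated of 9 genes, with a median of 1.08. The same 6 genes kept their calls in each of the 15 alternative fits, those that left out a library included.

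**Figure D1:**
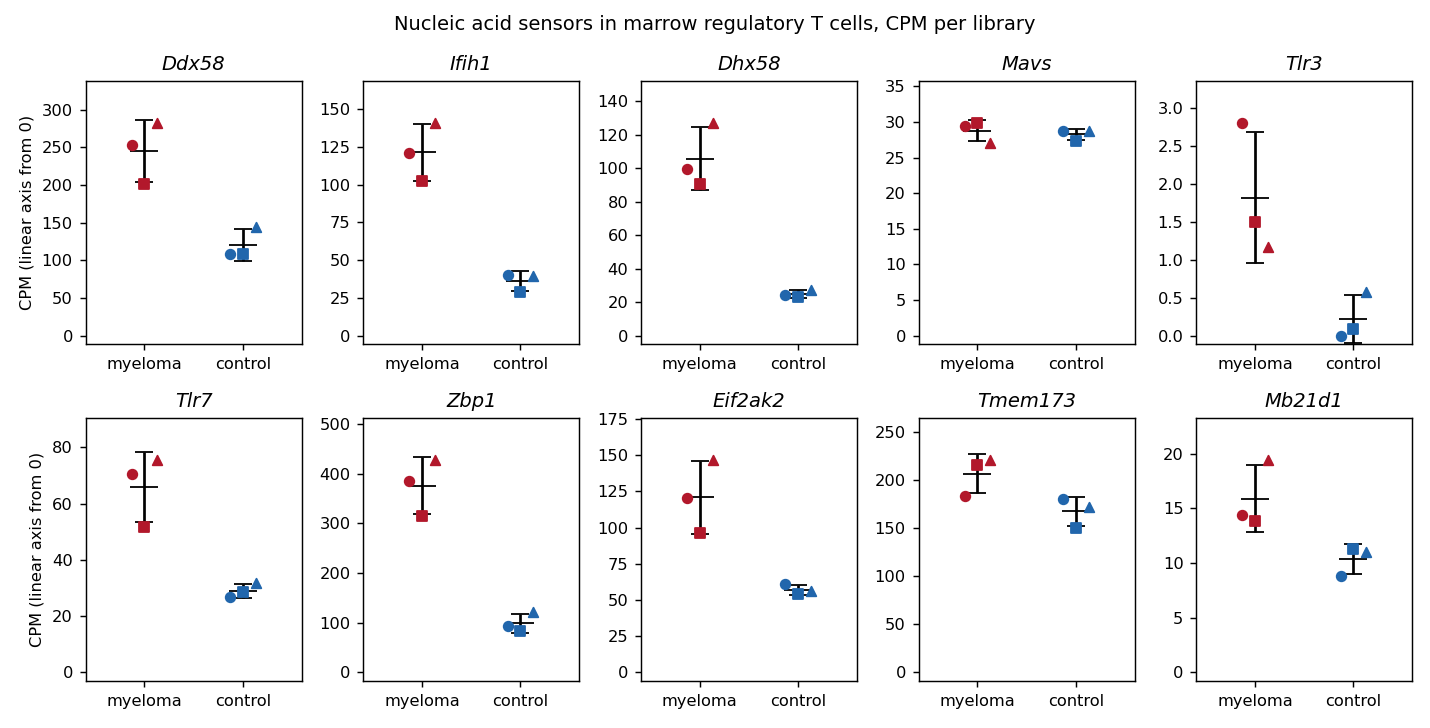
CPM of each of the 10 sensor genes (vertical axes, linear, from 0) in the 3 myeloma libraries and the 3 control libraries. Circles, squares and triangles are replicates 3, 4 and 5 of myeloma and 1, 3 and 5 of control, and bars are the mean and SD. The myeloma points lie above all control points for every gene but Mavs.

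Of the cytosolic RNA helicases, Ifih1 and Dhx58 differed more than Ddx58. Ddx58 (ENSMUSG00000040296.15, chromosome 4, bases 40203773 to 40239828 of mm10) encodes RIG-I, which recognises short double-stranded RNA with a triphosphate end. It had 252.9, 201.6 and 281.9 CPM in myeloma replicates 3, 4 and 5, against 109.1, 108.2 and 144.8 CPM in control replicates 1, 3 and 5. The groups did not overlap, with myeloma replicate 4 and control replicate 5 nearest to each other. Ddx58 rose 2.03-fold (log2 fold change 1.02, SE 0.15, edgeR adjusted p = 0.00514).

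Ifih1 (ENSMUSG00000026896.14, chromosome 2, bases 62595798 to 62646255) encodes MDA5, the sensor of long double-stranded RNA. Its levels were 121.2, 102.5 and 140.4 CPM in myeloma and 40.3, 28.7 and 39.7 CPM in controls, so the lowest myeloma library exceeded the highest control by a wide margin. Ifih1 rose 3.35-fold (log2 fold change 1.74, SE 0.16, edgeR adjusted p = 0.000328). Dhx58 (ENSMUSG00000017830.15, chromosome 11, bases 100694884 to 100704271) encodes LGP2, a relative that lacks the signalling domains of the other helicases and modulates them. It stood at 99.5, 90.5 and 126.6 CPM in myeloma and at 24.4, 22.8 and 27.5 CPM in controls, and the groups lay far apart. Dhx58 rose 4.23-fold (log2 fold change 2.08, SE 0.14, edgeR adjusted p = 8.19e-05), the 17th smallest p of the 13235 genes. The antisense gene Dhx58os overlaps it over 2637 bases but held 4 to 15 expected counts in myeloma and 3 to 7.04 in controls.

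Mavs (ENSMUSG00000037523.13, chromosome 2, bases 131234063 to 131248025), the adaptor that RIG-I and MDA5 share, did not pass the test. It had 29.5, 29.8 and 27.1 CPM in myeloma and 28.8, 27.4 and 28.7 CPM in controls, and the groups overlapped. Its log2 fold change was 0.02 (SE 0.11, edgeR adjusted p = 0.912), and with library sizes alone as the scaling the sign turned (-0.05). The sign also turned when myeloma replicate 3 (-0.01) or 4 (-0.001) or control replicate 3 (-0.002) was dropped.

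Levels of different genes were compared as transcripts-per-million values (TPM), which are scaled for length. On this scale the median of all genes tested was lower in myeloma, with a ratio of mean TPM of 0.855, so TPM ratios are read against that value. For Mavs the ratio of mean TPM was 0.85, close to it. The TPM ratio of Ddx58 to Mavs was 7.37, 6.37 and 9.1 in myeloma replicates 3, 4 and 5, against 3.61, 3.73 and 4.45 in control replicates 1, 3 and 5. The ratio of Ifih1 to Mavs was 2.57, 2.27 and 3.2 in myeloma, against 0.952, 0.709 and 0.878 in controls, above 1 in each myeloma library and below 1 in each control library. The ratio of Ddx58 to Ifih1 was 2.87, 2.81 and 2.84 in myeloma, against 3.8, 5.26 and 5.07 in controls. This ratio was thus nearly the same in each myeloma library and lower than in any control library. The ratio of Dhx58 to Ifih1 overlapped between the groups, at 1.95, 2.05 and 2.07 in myeloma and 1.34, 2.05 and 1.9 in controls. Of 6 such ratios tested, the 4 without overlap gave p = 0.1 in a two-sided exact permutation test, the smallest that 3 against 3 libraries allow, and 0.15 after Benjamini-Hochberg adjustment, so none passed.

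Zbp1 (ENSMUSG00000027514.14, chromosome 2, bases 173206612 to 173218923) encodes a sensor of left-handed nucleic acids that can start necroptosis and inflammatory cell death. It was at 386.1, 315.3 and 427.5 CPM in myeloma, against 93.1, 84.3 and 120.9 CPM in controls. The groups lay far apart, and myeloma replicate 4 was the lowest of its group, as it was for Ddx58, Ifih1, Dhx58, Tlr7 and Eif2ak2. Zbp1 rose 3.78-fold (log2 fold change 1.92, SE 0.16, edgeR adjusted p = 0.000203). In TPM it was the most abundant sensor gene in myeloma, at 324 ± 47.4 TPM (SD, n = 3), above 97.3% of all genes tested, against 104 ± 18.7 TPM in controls (n = 3).

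Eif2ak2 (ENSMUSG00000024079.4, chromosome 17, bases 78852564 to 78882573) encodes PKR, the kinase that phosphorylates the initiation factor eIF2 alpha when it binds double-stranded RNA. Its levels were 120.2, 96.1 and 146.5 CPM in myeloma and 60.9, 54.2 and 56.0 CPM in controls. Myeloma was higher in every library, and the spread within myeloma was much wider than within controls. Eif2ak2 rose 2.12-fold (log2 fold change 1.08, SE 0.14, edgeR adjusted p = 0.00311). The noncoding gene Gm26637 overlaps it on the opposite strand over 532 bases, with 103 to 135.32 expected counts in myeloma and 54.12 to 78 in controls. The labels do not say that strand was kept, so reads in such an overlap may come from either gene.

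The endosomal receptors were at very different levels. Tlr7 (ENSMUSG00000044583.13, X chromosome, bases 167304929 to 167330558), the receptor of single-stranded RNA, had 70.4, 51.7 and 75.4 CPM in myeloma and 26.8, 28.6 and 31.7 CPM in controls. It rose 2.27-fold (log2 fold change 1.18, SE 0.15, edgeR adjusted p = 0.00234). Tlr7 is also a gene of macrophages, B cells and plasmacytoid dendritic cells, whose markers were read in the same libraries. The macrophage markers were at 80.8, 174 and 555 CPM in myeloma replicates 3, 4 and 5, against 141, 57.2 and 100 CPM in control replicates 1, 3 and 5, and the B cell markers were at 34.5, 52.3 and 85.2 CPM against 54.5, 263 and 336 CPM. Over the 6 fits that each left out 1 library, the log2 fold change of Tlr7 was smallest without myeloma replicate 5, at 1.07 (edgeR adjusted p = 0.00485). It was largest without myeloma replicate 4, at 1.33 (0.00135). Such fits cannot show which cells the transcript came from, because markers of other cells were read in every library. Plasmacytoid dendritic cell markers summed to 129, 106 and 140 CPM in myeloma and 127, 146 and 138 CPM in controls, with none of 6 tested called. Much of each sum was Pacsin1 (37.2 to 60.9 CPM over the 6 libraries) and Runx2 (32.7 to 58.3 CPM). Siglech was at 0.846, 0 and 4.91 CPM in myeloma and 2.42, 2.32 and 5.52 CPM in controls. Spib was at 2.54, 3.87 and 13.3 CPM against 3.82, 36.4 and 38.3 CPM. The sum therefore says little about the amount of these cells. The part of these cells in the Tlr7 values was not tested.

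Tlr3 (ENSMUSG00000031639.11, chromosome 8, bases 45395665 to 45411080), the receptor of double-stranded RNA, was near the limit of detection. It had 33, 15 and 13 expected counts in myeloma and 0, 1 and 8 in controls, or 2.79, 1.49 and 1.16 CPM against 0, 0.0859 and 0.581 CPM. Its being tested at all rests on the myeloma libraries, so a difference in that direction is built in. The fitted log2 fold change was 2.93 (SE 0.95, edgeR adjusted p = 0.0808) and did not pass, and without control replicate 5 it was 5.12 (adjusted p = 0.0516).

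The DNA-sensing pair differed less than the RNA sensors, and neither gene passed the test. Mb21d1 (ENSMUSG00000032344.17, chromosome 9, bases 78430526 to 78443237), the gene of cGAS, was at 14.4, 13.8 and 19.4 CPM in myeloma and 8.82, 11.3 and 11 CPM in controls. The groups did not overlap in CPM, but the log2 fold change of 0.61 (SE 0.20) had an edgeR adjusted p of 0.0856. In TPM the groups overlapped, at 5.28, 4.67 and 6.1 in myeloma and 3.79, 4.44 and 5.05 in controls. Tmem173 (ENSMUSG00000024349.9), the gene of STING, had 183.4, 215.3 and 220.7 CPM in myeloma and 180.1, 150.3 and 171.7 CPM in controls, with myeloma replicate 3 barely above control replicate 1. Its log2 fold change was 0.30 (SE 0.10, edgeR adjusted p = 0.0945). In TPM its groups overlapped too, at 118.25, 133.59 and 127.47 against 134.44, 102.33 and 130.77. The TPM ratio of Mb21d1 to Tmem173 was low throughout, from 0.035 to 0.0479 in myeloma and from 0.0282 to 0.0434 in controls.

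**Figure D2:**
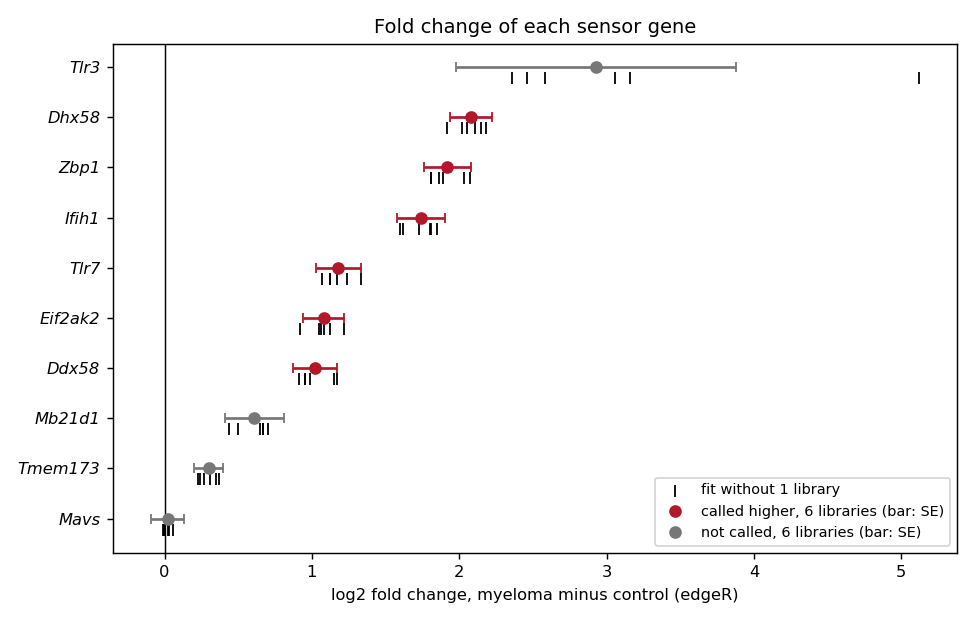
Log2 fold change of each sensor gene, myeloma minus control (horizontal axis), with its SE, in red where called higher and in grey where not called. The ticks under each point are the 6 fits that each left out 1 library. The called genes run from 1.02 for Ddx58 to 2.08 for Dhx58, and the value of Tlr3 moves most between fits.

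In myeloma the order of the levels was led by Zbp1, ahead of Tmem173 at 126 ± 7.72 TPM (SD, n = 3), Ddx58 at 103 ± 11.1 and Dhx58 at 73.6 ± 7.32 TPM. Eif2ak2 at 49.8 ± 10.7, Ifih1 at 36.4 ± 3.62 and Tlr7 at 26.8 ± 6.81 TPM came before Mavs at 13.7 ± 1.32, Mb21d1 at 5.35 ± 0.718 and Tlr3 at 0.62 ± 0.342 TPM. No neighbours in this order overlapped in their ranges over the libraries. In controls Tmem173, at 123 ± 17.6 TPM (SD, n = 3), and Zbp1 led, and their ranges overlapped. Ddx58 followed at 63.6 ± 11 TPM, then Eif2ak2 at 27.9 ± 3.27 and Dhx58 at 23.7 ± 4.06 TPM, which overlapped each other. Mavs at 16.2 ± 1.40, Ifih1 at 13.8 ± 3.07 and Tlr7 at 13.1 ± 1.83 TPM formed a group in which neighbours overlapped. Mb21d1 was at 4.43 ± 0.630 TPM and Tlr3 was listed at 0, 0.03 and 0.25 TPM in control replicates 1, 3 and 5. Dhx58 was above Eif2ak2, and Ifih1 and Tlr7 were above Mavs, in each myeloma library.

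The summed level of the 10 genes was 791.1, 669.7 and 819.5 TPM in myeloma replicates 3, 4 and 5, against 392.5, 337.6 and 438.6 TPM in control replicates 1, 3 and 5. Zbp1 made up 44.5%, 40.2% and 42.8% of it in myeloma, against 24.2%, 27.2% and 28.7% in controls. Tmem173 made up 14.9%, 19.9% and 15.6% in myeloma, against 34.3%, 30.3% and 29.8% in controls. In TPM the myeloma values lay above all control values for 7 of the 10 genes, which 6.25% of all genes tested did (6 of 9 without Tlr3), and below them for none, against 30.8% of all genes.

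**Figure D3:**
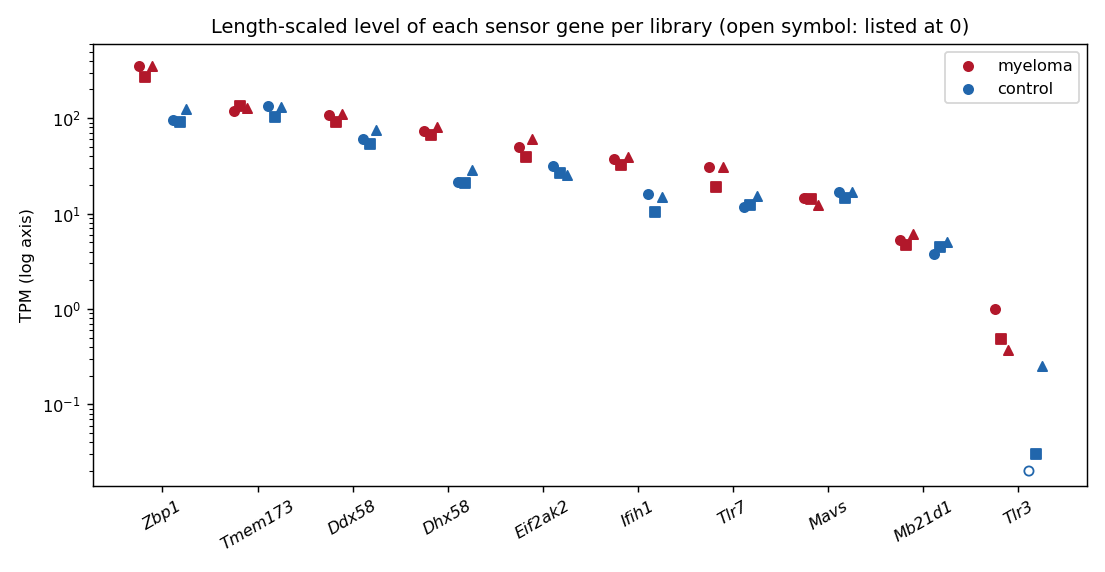
TPM of each sensor gene in each library (vertical axis, logarithmic), myeloma in red to the left of control in blue, ordered by the myeloma mean. Symbols mark the replicates, and the open symbol is a library in which Tlr3 is listed at 0. Zbp1 leads in myeloma at 324 TPM, and Tmem173 leads in controls at 123 TPM.

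The genes whose profile over the 6 libraries was nearest to a sensor's were found by the root mean square difference of centred log2 CPM. Only protein-coding genes were searched, without the sensor genes, predicted genes and gene segments of immunoglobulins and T cell receptors. For Dhx58 they were Isg20, an exonuclease gene (0.081), and Ifi27l2a (0.148). Zbp1 was nearest to Xaf1 (0.109) and Ifi214 (0.121), and Ifih1 to Lgals3bp (0.096) and Ifi214 (0.117). Ddx58 was nearest to Cuedc1 (0.040) and Ehd4 (0.073), Tlr7 to Muc20 (0.075) and Ifit2 (0.092), and Eif2ak2 to Gbp9 (0.091) and Pml (0.094). Tmem173 was nearest to Rnf14 (0.045) and Tnfaip8l2 (0.046), Mb21d1 to Tmem203 (0.042) and Polr2f (0.090), and Mavs to Adss (0.022) and Taf2 (0.022). No profile searched lay close to that of Tlr3, whose nearest genes were Scand1 (0.547) and Socs1 (0.551). The genes within 2 times the smallest difference numbered 1 for Mb21d1 and 2 for Ddx58. They numbered 3 for Dhx58, 13 for Zbp1, 15 for Ifih1 and 15 for Tlr7, so several genes not named also lay in that range for Zbp1, Ifih1 and Tlr7. For Mavs they numbered 46, for Eif2ak2 47, for Tmem173 79 and for Tlr3 238. The genes named for these last are hardly distinct from others.

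Other genes of the sensors' pathways were counted in 7 lists, which hold 130 distinct tested genes, 28 of them called higher (21.5%) and 8 lower (6.15%), beside 6.33% and 4.69% of all genes tested. The share lower is near that of all genes. Of 28 genes around the RIG-I-like receptors, 6 rose (21.4%) and 4 fell (14.3%), with a median log2 fold change of 0.05. Isg15, a ubiquitin-like modifier that regulates MDA5 (log2 fold change 3.54, SE 0.17), Irf7, the interferon-inducible transcription factor downstream of the adaptors (2.57, SE 0.22), Usp18, which removes Isg15 (2.33, SE 0.19), and the helicase gene Ddx60 (1.64, SE 0.12) rose. Irf7 was at 421.5, 339.7 and 557.0 CPM in myeloma, against 70.5, 57.3 and 94.4 CPM in controls. Those that fell were the helicase genes Ddx3x (-0.67) and Dhx9 (-0.42), the ubiquitin ligase gene Rnf125, whose product marks RIG-I for decay in human cells (-0.39), and the signalling ligase gene Traf6 (-0.38). Ddx3x lost its call without myeloma replicate 4 (edgeR adjusted p = 0.0529). Dhx9 lost its call when myeloma replicate 3 (0.0752) or 4 (0.0867), or control replicate 3 (0.0821) or 5 (0.0533), was dropped, and so did Traf6 (0.0623, 0.0618, 0.0958 and 0.0642 in the same order). Among the 6 fits that dropped a library, Rnf125 kept its call only without control replicate 5, with adjusted p of 0.0625, 0.122 and 0.0749 when myeloma replicate 3, 4 or 5 was dropped and 0.0985 and 0.14 when control replicate 1 or 3 was. Tbk1 and Irf3, the kinase and transcription factor genes that the adaptors MAVS and STING share, were named here after their values were seen. Neither was called: Tbk1 had a log2 fold change of 0.21 (edgeR adjusted p = 0.124) and Irf3 of 0.01 (0.976).

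Of 26 tested genes around cytosolic DNA sensing, 1 rose (3.85%) and 2 fell (7.69%), with a median log2 fold change of -0.01, and these shares are near those of all genes. Ifi204, a DNA-binding interferon-inducible gene, had 21.5, 16.8 and 32.7 CPM in myeloma and 1.87, 0.601 and 1.74 CPM in controls, and rose (log2 fold change 4.05, SE 0.40, edgeR adjusted p = 0.000575). Dhx9, named above, and the RNA polymerase III subunit gene Polr3f (-0.45) fell. Among the same 6 fits, Polr3f kept its call only without control replicate 1, with adjusted p of 0.0503, 0.105 and 0.0632 when myeloma replicate 3, 4 or 5 was dropped and 0.106 and 0.102 when control replicate 3 or 5 was. Of 19 tested genes of the endosomal receptor pathway, Irf7 and the adaptor gene Myd88 (0.46, SE 0.10) rose and Traf6 fell. Myd88 lost its call when myeloma replicate 3 (edgeR adjusted p = 0.0796) or 5 (0.0534) was dropped, or any control replicate (0.0695, 0.0828 and 0.0547 for 1, 3 and 5). The median of that list was 0.22, and its shares of 10.5% higher and 5.26% lower are near those of all genes.

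Of 21 genes in a list of nucleases, modifiers of nucleic acids and related enzymes, 9 rose (42.9%) and none fell, with a median log2 fold change of 0.46. They included Cmpk2, a nucleotide kinase gene (2.41, SE 0.20), Isg20 (2.02, SE 0.11), the cytosolic DNA exonuclease gene Trex1 (1.25, SE 0.13) and the RNA helicase gene Mov10 (0.97, SE 0.11). Trex1 stood at 47.2, 35.4 and 43.4 CPM in myeloma, against 18.5, 16.7 and 17.9 CPM in controls. The count was between 6 and 8 whichever library was left out.

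In the list of cell death genes around Zbp1, 4 of 14 rose (28.6%) and 1 fell (7.14%), with a median of 0.32. Mlkl, which encodes the pore-forming executor of necroptosis, had 13.7, 9.03 and 13.8 CPM in myeloma and 3.67, 3.35 and 1.74 CPM in controls, and rose (log2 fold change 2.06, SE 0.34, edgeR adjusted p = 0.00844). The caspase genes Casp1 (1.32) and Casp8 (0.38) and the gene of a pore-forming protein, Gsdmd (0.36), also rose. Tnfaip3, an inhibitor of NF-kB (-2.21), fell. Ripk3, the kinase gene that links ZBP1 to MLKL and named here after its value was seen, was at a log2 fold change of 0.35 (edgeR adjusted p = 0.0979). Casp1 lost its call when myeloma replicate 3 (edgeR adjusted p = 0.0578) or 4 (0.0719) or control replicate 3 (0.076) was dropped, as did Casp8 (0.0625, 0.0601 and 0.0828 in the same order). Among the 6 fits that dropped a library, Gsdmd kept its call only without myeloma replicate 5 (0.091 to 0.12 in the other 5), and Tnfaip3 lost its call without myeloma replicate 4 (0.0575). The number that rose was 1 when any of these 3 libraries, myeloma 3 or 4 or control 3, was dropped.

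Around PKR and eIF2, 1 of 19 genes rose and 1 fell (5.26% each, near the shares of all genes), with a median of -0.05. Ppp1r15a, which encodes the stress-induced subunit that returns eIF2 alpha to its unphosphorylated form, was at 92.9, 70.6 and 160.4 CPM in myeloma and 429.1, 814.7 and 396.0 CPM in controls, and fell (log2 fold change -2.34, SE 0.35, edgeR adjusted p = 0.00529). Ddit3, a transcription factor gene of the same stress response, rose (0.78, SE 0.17). Among the 6 fits that dropped a library, it kept its call only without myeloma replicate 5, with an edgeR adjusted p of 0.0623 to 0.0899 in the other 5. Of 14 genes in the interferon receptor list, 7 rose (50%) and 1 fell (7.14%), with a median of 0.34. Besides the receptor, its kinases and its transcription factor ISGF3, the list holds other regulators such as Irf2, Socs3 and Ptpn2. The receptor genes Ifnar1 (-0.18, edgeR adjusted p = 0.284) and Ifnar2 (0.02, 0.924), named here after their values were seen, were not called. The transcription factor genes Stat2 (1.45, SE 0.14) and Irf9 (0.82, SE 0.11) rose, as did Usp18. Jak1 (-0.40) fell, a call that was lost in all 6 fits that left out a library (edgeR adjusted p from 0.0593 to 0.127). Without myeloma replicate 3 the number that rose was 4.

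**Figure D4:**
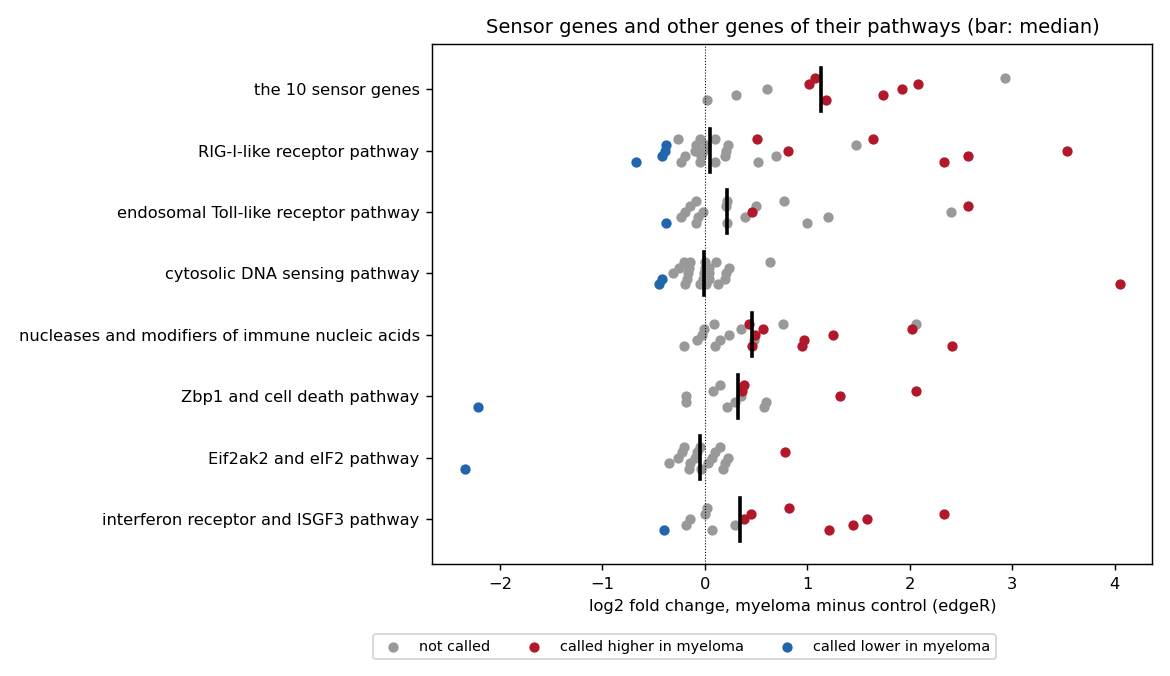
Log2 fold change, myeloma minus control (horizontal axis), of the 10 sensor genes and of each tested gene in the 7 pathway lists, with the median of each list as a black bar. Red points were called higher, blue points lower and grey points not called. The median is 1.13 for the sensors and lies between -0.05 and 0.46 for the other lists.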

How the data were processed

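Libraries were made with the NEBNext Ultra RNA kit from total RNA, per the labels' protocols, and each deposited table holds 1 library. The submitters' processing notes name STAR, Picard, RSEM and DESeq2 and the build mm10, with versions not given in the sources used here. The authors' deposited expected counts are RSEM's unnormalized estimates of reads per gene. The deposited TPM and FPKM were scaled by the authors' RSEM run for length and library, per the file headers. TPM served to describe levels and FPKM was not used. Of the identifiers, 47224 of 47643 matched the reference names. Positions are those of GENCODE M21 on GRCm38, the assembly of mm10, counted from 1.

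Expected counts were rounded to whole numbers. The edgeR function filterByExpr (minimum count 10 and minimum total 15) left 13235 genes. After TMM scaling, glmQLFit and glmQLFTest of edgeR 4.0.16 in R 4.3.3 gave myeloma minus control, and p-values were adjusted by Benjamini-Hochberg over these genes (threshold 0.05). SE was taken as the absolute log2 fold change over the root of F. CPM use TMM-scaled totals, and profiles were compared as log2 CPM after adding a prior count of 2. The script was also tested on simulated data, in which it recovered only part of the changes put in. Totals were 10240620 to 13314631 expected counts, which limits precision for genes such as Tlr3. Replicate numbers are not linked to animals in the labels, and p-values reflect only how far these libraries vary, which may be technical. All 10 sensor genes passed the filter.

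Named pathway genes are up to 4 called genes per list with the smallest p, plus those needed to explain a count of 5 or fewer. The result of 1 gene that this rule names is not reported here. The 7 lists share 11 genes, and Tasl was not found in the tables. The members, lists and tests were chosen with earlier results of these data known, so no pattern here is independent support for them. The alternatives changed the scaling (RLE, upper-quartile, or library sizes with no factor), the filter (none, or 1 CPM or more in 3 samples) or the tool (DESeq2 1.42.0, or limma-voom with limma 3.58.1). Others removed genes of immunoglobulins, haemoglobins and mitochondria, added a replicate block, or dropped a library.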

Additional observations from a re-analysis of the deposited data

How the results depend on the processing

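The number of sensor genes called higher was 6 in 14 of the 15 alternative fits and 7 with no filter on low counts, where Tlr3 also passed (adjusted p = 0.024), and no fit called one lower. Their median log2 fold change ran from 0.99 to 1.27. The sign of Mavs turned with library sizes alone (-0.05), and its value ran from -0.01 to 0.06 over the fits that left out a library, with -0.001 without myeloma replicate 4 and -0.002 without control replicate 3. Over all genes, 331 to 836 were called higher and 123 to 546 lower when a library was left out. With no filter they were 1337 and 1102. The number lower was 1004 with library sizes alone and 964 with DESeq2. Fits that drop a library have fewer samples, and the fit with no filter tests more genes. The cause of the shifts with library sizes alone and with DESeq2 was not tested.

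Replicate numbers 3 and 5 occur in both groups, but nothing says that they mark a shared animal or day. Deviations of the same-numbered libraries from their group means correlated at 0.03 and 0.097 across genes. With the replicate number as a block, 362 genes were called higher and 142 lower, and all 6 sensor genes kept their calls. The block moved the counts of higher genes to 4 in the RIG-I-like list, 1 in the endosomal list, 5 in the nuclease list and 2 in the cell death list. It moved them to 0 in the eIF2 list and 4 in the interferon receptor list. It left 0 genes lower in the RIG-I-like, endosomal, DNA-sensing, cell death and interferon receptor lists.

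When a library was left out, the genes called lower were 0 to 3 in the RIG-I-like list, 0 to 1 in the endosomal list, 0 to 2 in the DNA-sensing list, 0 to 1 in the cell death list and 0 in each fit in the interferon receptor list. Those called higher were 4 to 6 in the RIG-I-like list, 1 to 2 in the endosomal list and 1 to 5 in the cell death list. They were 0 to 1 in the eIF2 list and 4 to 6 in the interferon receptor list. With no filter, 8 endosomal genes were higher and 2 eIF2 genes lower. Depth limits what can be said of Tlr3, which had 0 to 33 expected counts in a library, and DESeq2 gave it no adjusted p.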

Other observations

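RSEM's transcript length of a gene is weighted by the abundance of its transcripts, so it moves when they change share. For Dhx58, with 6 annotated transcripts in the tables, the weighted length was 2028, 1984 and 2103 bases in myeloma replicates 3, 4 and 5, against 1972, 1749 and 1751 bases in control replicates 1, 3 and 5. For Mb21d1, with 3 transcripts, it was 3899, 4049 and 4049 bases in myeloma, against 3853, 3818 and 3695 bases in controls. The effective lengths that RSEM derived from these were 1832, 1780 and 1890 bases in myeloma and 1777, 1542 and 1550 bases in controls for Dhx58. The groups did not overlap in length for these genes, a separation shown by 13.5% of the 9186 tested genes whose length varied, and the lengths of the other sensor genes overlapped or did not vary. Which transcripts differ was not tested.

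The other endosomal receptor genes Tlr8, Tlr9 and Tlr13 were low in most libraries, and none was called. Macrophage markers were highest in myeloma replicate 5, at 555 CPM. Tlr13 was at 0.762, 1.19 and 14.1 CPM in myeloma replicates 3, 4 and 5, against 1.64, 0.429 and 0.944 CPM in controls. Tlr8 was at 0.339, 0.0992 and 3.13 CPM in myeloma, against 0.156, 0.515 and 0.218 CPM in controls, and was too low to be tested. Tlr9 was at 1.44, 1.89 and 4.55 CPM in myeloma, against 0.78, 4.55 and 3.92 CPM in controls, and the groups overlapped. The part of macrophage RNA in these values was not tested.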
